A study of Mus musculus with 8 samples.

Results

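The genes for the subunits of glutamate and GABA receptors were followed in mouse embryonic stem cells (mESCs) and in the cells these became after 6 days of neural differentiation. The genes were chosen by name, as the rows of the expression files called *Gria*, *Grik*, *Grin*, *Grm*, *Gabra*, *Gabrb*, *Gabrg* or *Gabbr* with their subunit number. Of 24849 genes listed, 38 have such names, and 34 of these are described. The 34 comprised 4 AMPA, 5 kainate, 7 NMDA and 7 metabotropic glutamate receptor genes, 9 GABA-A receptor genes and 2 GABA-B receptor genes. RNA was sequenced in 8 samples, with 2 samples in each of 4 conditions. Wild-type (WT) and *Pcgf5*-/- mESCs were taken at day 0, from feeder-coated plates with serum, leukemia inhibitory factor and the 2i inhibitors, and at day 6 of culture in N2B27, a serum-free neural induction medium. All were of the MPI-II line, of 129S2/SvPas background, and polyA RNA was selected. *Pcgf5* encodes a subunit of a variant Polycomb repressive complex, and it had been disrupted with nucleases (TALEN) at its second exon in cells grown from picked colonies. How many colonies stand behind the *Pcgf5*-/- samples is not given in the sources used here, so a difference between genotypes cannot be told apart from a difference between cell clones.

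Glutamate is the main excitatory transmitter of the brain and GABA the main inhibitory one. AMPA, kainate and NMDA receptors are glutamate-gated cation channels, each assembled from several subunits, whereas metabotropic glutamate receptors act through G proteins. GABA-A receptors are chloride channels, usually built of alpha, beta and gamma subunits, and GABA-B receptors are G-protein-coupled pairs of a GABBR1 and a GABBR2 subunit. Many of these genes are known for their high levels in maturing neurons.

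The labels were checked first. *Pcgf5* itself stood at 5.18 and 3.63 FPKM in the WT samples and at 1.28 and 1.84 FPKM in the *Pcgf5*-/- samples of day 0, and at 9.16 and 5.06 against 0.669 and 0.457 FPKM at day 6. In the limma fit described below, its difference between genotypes did not pass at day 0 (-1.07, adjusted p = 0.105). It passed at day 6 (-2.33, adjusted p = 0.00421). FPKM is the number of fragments scaled for transcript length and library size, so that levels of different genes can be set side by side per length. The summed level of 10 pluripotency markers was 2086 to 2261 FPKM in the 4 samples of day 0, 175 and 391 FPKM in WT day 6 and 1060 and 1062 FPKM in *Pcgf5*-/- day 6. The summed level of 10 neural progenitor markers was 13.3 to 18.7 FPKM at day 0, 406 and 419 FPKM in WT day 6 and 147 and 160 FPKM in *Pcgf5*-/- day 6. The summed level of 12 neuron markers was 169 to 221 FPKM at day 0, 409 and 579 FPKM in WT day 6 and 213 and 247 FPKM in *Pcgf5*-/- day 6. *Stmn2* alone stood at 90.0 to 132 FPKM at day 0 and fell to 32.3 to 68.0 FPKM at day 6. By the test described below, 9 of 11 neuron markers were called higher and 1 lower between the days in WT cells. In *Pcgf5*-/- cells 8 were called higher and 1 lower. Among all genes tested, 34.2% and 16.2% were so called in WT and 21.9% and 10.4% in *Pcgf5*-/- cells. Marker levels thus differed between genotypes at day 6, and in such bulk samples fewer cells of a type and less RNA per cell cannot be told apart. A list of 10 markers of fibroblasts, the kind of cell used as feeders, summed to 185 to 647 FPKM at day 0 and 13.9 to 37.8 FPKM at day 6, with the highest sum in *Pcgf5*-/- day 0 replicate 2. None of these marker lists had a gene at 0 in all 8 samples. The part of culture composition in the results that follow was not tested.

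Receptor transcripts were scarce throughout. Summed over the 34 genes, the level was 25.2 and 24.3 FPKM in the WT samples of day 0 and 18.7 and 22.0 FPKM in the *Pcgf5*-/- samples. At day 6 the sum was 39.4 and 36.9 FPKM in WT and 27.9 and 26.2 FPKM in *Pcgf5*-/- cells. Every sample of day 6 thus lay above every sample of day 0, and at both days the WT samples lay above the *Pcgf5*-/- samples. Only 7 of the 34 genes had a mean over 1 FPKM in at least one condition, and these 7 held 84.3% to 94.8% of the summed level. They were *Gria3*, *Grik3*, *Grik5*, *Grin1*, *Grm2*, *Grm4* and *Gabbr1*. *Gria3*, *Grik3*, *Grik5* and *Gabbr1* had a mean over 1 FPKM in all 4 conditions. *Grin1* had one only at day 0, *Grm4* only at day 6, and *Grm2* only in *Pcgf5*-/- day 0 and WT day 6. Because these 3 genes entered the test through the conditions in which they were high, shares of tested genes and medians over them are given below as description and not as support.

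**Figure D1:**
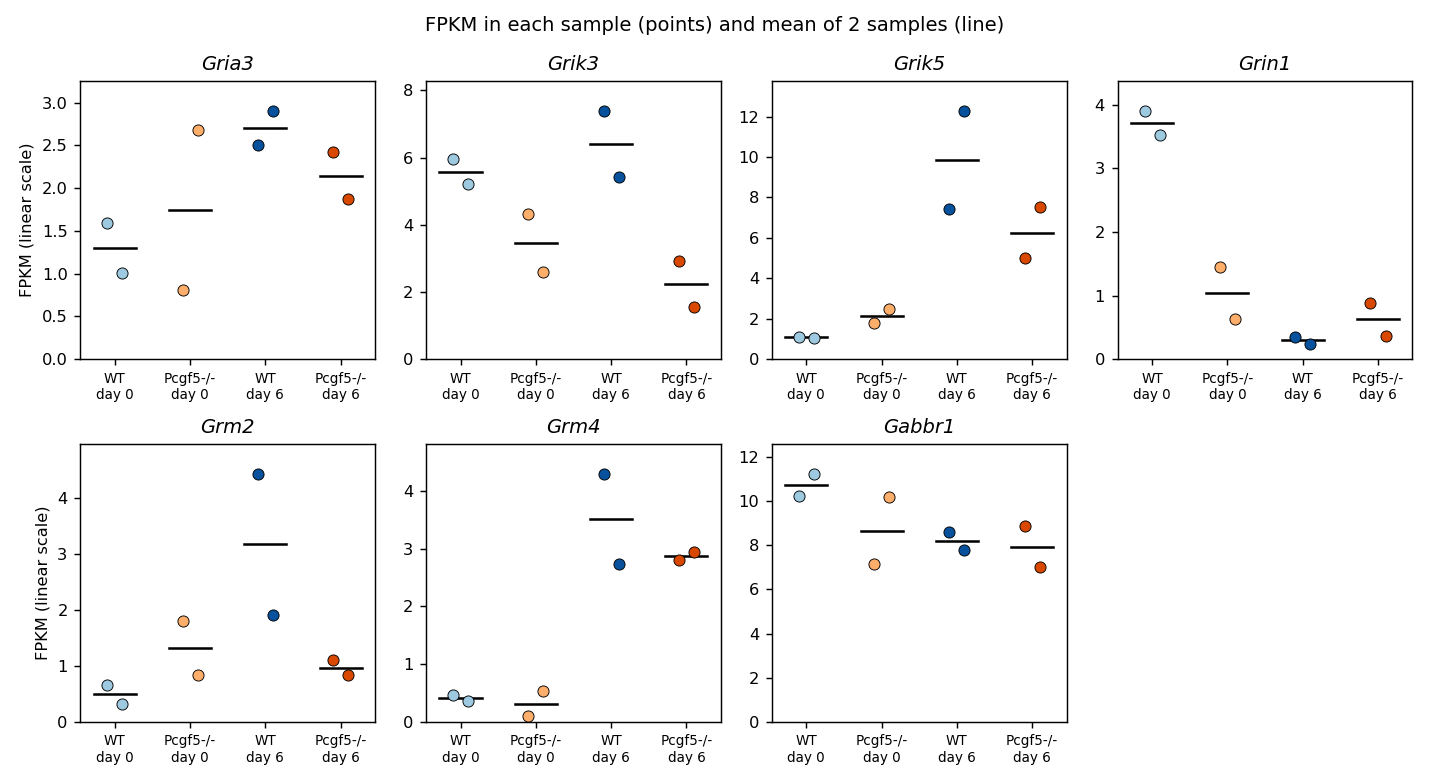
FPKM (linear scale, from 0) of the 7 receptor genes with a mean over 1 FPKM in at least one condition, with a point for each of the 2 samples and a line at their mean. *Grik5* and *Grm4* were higher in all 4 samples of day 6 than in all 4 samples of day 0, *Grin1* was highest in WT day 0 (3.91 and 3.52 FPKM), and *Grik3* in *Pcgf5*-/- day 6 (2.92 and 1.54 FPKM) lay under all WT values.

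The sequences before the listed starts of the 4 genes on which the comparisons turn are shown here, since Polycomb complexes of this family are known for binding at CpG-rich promoters. The printed sequence is that of the 300 bases before the gene's start in build mm9, on the gene's strand from 5′ to 3′, with each CpG in capitals. A gene's start was taken as the outer edge of its listed locus, not as a measured start of transcription, so a window need not be a promoter. The lower edge of the locus equalled that of the gene in GENCODE vM1 for 9934 of 20326 matched genes. For genes on the minus strand, *Grik5*, *Grm4* and *Grin1* among them, the start is the upper edge, which was not compared. *Grik5* (chr7:25857389-25857688, minus strand) and *Grm4* (chr17:27640479-27640778, minus strand) were the genes called higher at day 6 in both genotypes, *Grik3* (chr4:125167775-125168074, plus strand) was the gene called lower in *Pcgf5*-/- cells at day 6, and *Grin1* (chr2:25174708-25175007, minus strand) was the gene called lower at day 6 in WT cells.
Grik5: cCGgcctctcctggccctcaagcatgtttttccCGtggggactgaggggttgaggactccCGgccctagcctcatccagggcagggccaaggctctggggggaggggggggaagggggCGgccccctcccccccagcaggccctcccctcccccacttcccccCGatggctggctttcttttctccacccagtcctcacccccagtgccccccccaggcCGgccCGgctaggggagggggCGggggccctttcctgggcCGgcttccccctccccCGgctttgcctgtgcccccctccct
Grm4: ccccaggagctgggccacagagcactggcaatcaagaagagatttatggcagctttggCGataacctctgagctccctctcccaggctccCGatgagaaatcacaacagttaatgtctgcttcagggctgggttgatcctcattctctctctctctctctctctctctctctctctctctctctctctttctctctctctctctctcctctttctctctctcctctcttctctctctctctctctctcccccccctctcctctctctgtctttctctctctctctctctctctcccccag
Grik3: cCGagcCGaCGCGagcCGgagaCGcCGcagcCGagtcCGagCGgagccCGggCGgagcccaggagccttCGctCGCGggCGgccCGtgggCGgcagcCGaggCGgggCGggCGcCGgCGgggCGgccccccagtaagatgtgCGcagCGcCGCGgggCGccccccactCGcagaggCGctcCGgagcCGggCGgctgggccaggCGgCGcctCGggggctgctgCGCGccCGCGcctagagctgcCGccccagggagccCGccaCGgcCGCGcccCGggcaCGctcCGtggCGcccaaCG
Grin1: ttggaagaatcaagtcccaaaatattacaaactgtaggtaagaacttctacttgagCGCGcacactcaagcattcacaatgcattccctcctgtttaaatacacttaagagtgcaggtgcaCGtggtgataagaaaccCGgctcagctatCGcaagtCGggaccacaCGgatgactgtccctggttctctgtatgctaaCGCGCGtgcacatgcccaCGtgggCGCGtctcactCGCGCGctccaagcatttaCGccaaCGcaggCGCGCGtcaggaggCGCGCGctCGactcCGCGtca

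The *Grik3* window held 52 CpG at 83.3% G+C, the highest count of the 34 receptor genes, and 99.3% of the windows of 18774 protein-coding genes held fewer. *Grin1* held 27 CpG, *Grik5* 10 at 73.3% G+C, and *Grm4* 2 beside a long run of alternating C and T. *Grik5* and *Grm4*, which moved alike, thus had windows of different composition. Over the 34 genes the median was 10.5 CpG, against 12 over all protein-coding genes. The 7 genes with a mean over 1 FPKM ranged from 2 to 52 CpG (median 16) and the other 27 from 1 to 48 (median 10), so the ranges overlapped almost wholly. *Gabbr2*, with 48 CpG, did not exceed 0.320 FPKM in any sample.

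Receptor genes of neurons are a textbook place to find the RE1 element, which the repressor REST binds. The letters AGCACC, any 2 bases and GGACAG, the core of that element, were searched on both strands within 2000 bases on either side of each gene's start. They were found at 2 of the 34 receptor genes, and at 93 (0.495%) of the 18774 protein-coding genes, which include the 34. The matches are shown because they are what these 2 genes share in sequence, with the searched letters in capitals and read on the strand that carries them.
Grin1: cttcAGCACCtcGGACAGcac
Gria2: ttttAGCACCgcGGACAGcgc
The capitals and the bases between them covered chr2:25174538-25174551 in *Grin1*, in an exon 156 bases after the start. In *Gria2* they covered chr3:80606914-80606927, 214 bases before the start. The 2 genes did not share a level: *Gria2* did not exceed 0.0830 FPKM in any sample, and *Grin1* was at 0.238 to 3.91 FPKM.

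Differences between conditions were fitted with limma on log2(FPKM + 1) over 13214 genes, and a gene was called at a Benjamini-Hochberg adjusted p under 0.05. Each condition had 2 samples, and fold values on this scale are smaller than ratios of FPKM for weakly expressed genes. The first question was which receptor genes changed as WT mESCs turned towards a neural fate. Of the 7 genes tested, *Grik5*, *Grm4* and *Grm2* were called higher at day 6 and *Grin1* lower. Among all genes tested, 34.2% were called higher and 16.2% lower in this comparison. In counts this was 4522 higher and 2146 lower as the FPKM values were deposited, but 3181 higher and 3020 lower after quantile normalization, under which these 4 receptor genes were called in the same directions and *Gabbr1* was called lower as well. The median difference was 0.70 over the 7 genes and 0.22 over all genes tested.

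Among the 7 tested genes, the largest difference on this scale was that of a kainate receptor gene. *Grik5* (chr7:25794870-25857388) encodes a subunit of high affinity for kainate that forms channels only together with GRIK1, GRIK2 or GRIK3. It stood at 1.10 and 1.03 FPKM in WT day 0 and at 7.43 and 12.3 FPKM in WT day 6. The difference was 2.36 on the log2(FPKM + 1) scale (SE 0.27, adjusted p = 0.000272), and the ratio of the mean FPKM values was 9.25. *Grik3* (chr4:125168075-125391417), which encodes a subunit able to form channels on its own, was at 5.95 and 5.21 FPKM in WT day 0 and 7.39 and 5.41 FPKM in WT day 6. These values overlapped, and the difference of 0.16 (95% confidence interval -0.49 to 0.81) did not pass the test. The summed level of the 5 kainate receptor genes was accordingly 7.49 and 6.34 FPKM in WT day 0 and 15.8 and 18.8 FPKM in WT day 6. *Grik3* made up 79.4% and 82.1% of that sum at day 0 and 46.9% and 28.8% at day 6, whereas *Grik5* made up 14.6% and 16.3% at day 0 and 47.2% and 65.3% at day 6.

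**Figure D2:**
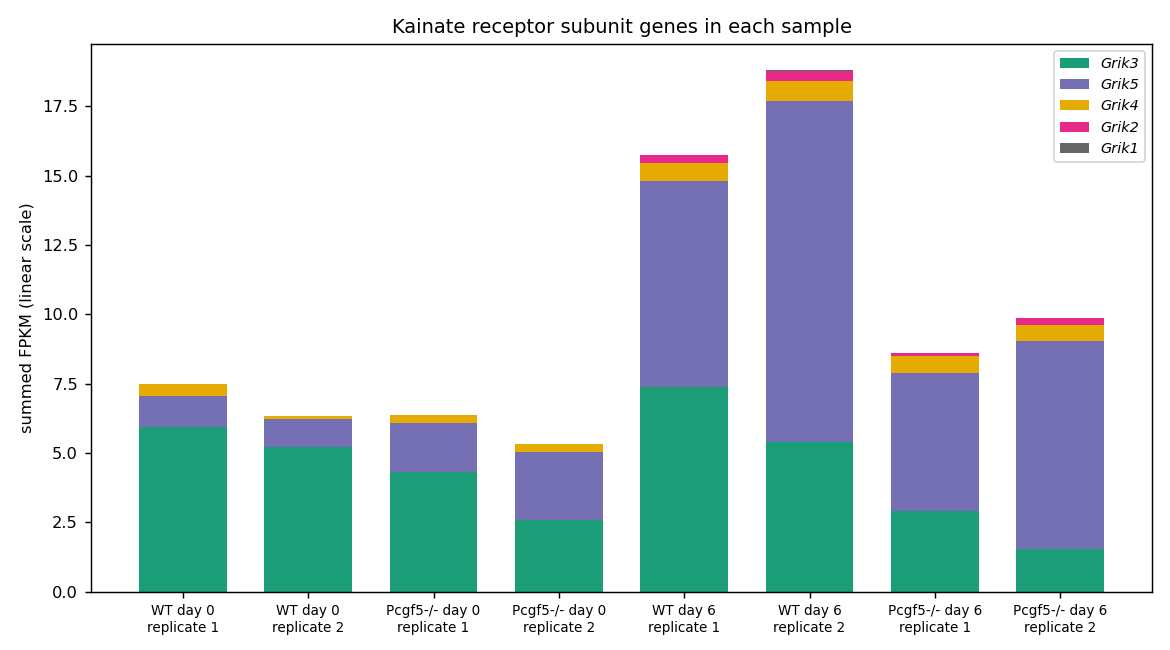
Stacked FPKM (linear scale, from 0) of the 5 kainate receptor subunit genes in each of the 8 samples. The sum was 5.31 to 7.49 FPKM in the 4 samples of day 0, 15.8 and 18.8 FPKM in WT day 6 and 8.61 and 9.88 FPKM in *Pcgf5*-/- day 6, with *Grik5* the largest part in every day 6 sample.

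The other kainate receptor genes stayed under the minimum for the test. *Grik2*, whose product forms channels alone or with GRIK5, was listed at 0 in all 4 samples of day 0 and at 0.305 and 0.354 FPKM in WT day 6. *Grik4*, the relative of *Grik5*, was at 0.445 and 0.102 FPKM in WT day 0 and at 0.628 and 0.704 FPKM in WT day 6. *Grik1* was above 0 in only 1 of the 8 samples, at 0.0514 FPKM.

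Of the metabotropic glutamate receptor genes, *Grm4* and *Grm2* rose. Both encode receptors that couple to inhibitory G proteins and are known for reducing transmitter release. *Grm4* (chr17:27559333-27640478) was at 0.457 and 0.356 FPKM in WT day 0 and at 4.31 and 2.74 FPKM in WT day 6, a difference of 1.66 (SE 0.24, adjusted p = 0.000748). *Grm2* (chr9:106546866-106558440) was at 0.660 and 0.324 FPKM in WT day 0 and at 4.45 and 1.91 FPKM in WT day 6, a difference of 1.42 (SE 0.33, adjusted p = 0.00749). The days did not overlap for either gene, but the *Grm2* samples of WT day 6 lay more than 2 FPKM apart, and without WT day 0 replicate 2 its difference of 1.26 was just over the threshold (adjusted p = 0.05 when rounded). The 5 other metabotropic receptor genes had no value over 0.496 FPKM. *Grm6*, known from ON bipolar cells of the retina, reached that value and was higher in all 4 samples of day 6 (0.0561 to 0.496 FPKM) than in all 4 of day 0 (up to 0.0432 FPKM). It shared 599 exon bases with *Gm12660* on the opposite strand. Since the sources used here do not say whether the libraries kept the strand, reads of *Grm6* and of that transcript cannot be told apart. *Grm5*, of the group that couples to phospholipase C, did not exceed 0.0137 FPKM. *Grm3* and *Grm8* did not exceed 0.104 and 0.116 FPKM, and *Grm7* was listed at 0 in all samples.

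*Grin1* (chr2:25146697-25174707), which encodes the subunit that every NMDA receptor contains, moved the other way. It was at 3.91 and 3.52 FPKM in WT day 0 and at 0.346 and 0.238 FPKM in WT day 6. The difference was -1.87 (SE 0.25, adjusted p = 0.000533), and its mean FPKM was 12.7-fold higher at day 0 than at day 6, a larger ratio than that of *Grik5*. It shared 1307 exon bases with *E130003G02Rik* on the opposite strand. Whether the libraries kept the strand is not given in the sources used here, so reads of *Grin1* and of that transcript cannot be told apart. The genes for its partner subunits were low at both days. The highest value in any sample was 0.0840 FPKM for *Grin2a*, 0.0646 FPKM for *Grin2b*, 0.176 FPKM for *Grin2c* and 0.463 FPKM for *Grin2d*, all glutamate-binding GRIN2 subunits. It was 0.248 FPKM for *Grin3a* and 0.151 FPKM for *Grin3b*, whose products bind glycine. *Grin1* made up 89.6% and 90.3% of the summed level of the 7 NMDA receptor genes in WT day 0, and the sum went from 4.36 and 3.90 FPKM to 1.08 and 0.721 FPKM.

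*Gria3* (chrX:38754478-39031778) was the main AMPA receptor gene in every sample, with 59.0% to 98.4% of the summed level of the 4 genes. It was at 1.59 and 1.01 FPKM in WT day 0 and at 2.51 and 2.90 FPKM in WT day 6. The WT groups did not overlap, but the difference of 0.70 (SE 0.32, adjusted p = 0.104) did not pass the test, where the spread was shared with the 2 *Pcgf5*-/- samples of day 0, at 0.805 and 2.68 FPKM. The higher of these was *Pcgf5*-/- day 0 replicate 2, which also had the highest sum of fibroblast markers. Without either of these samples the *Gria3* difference passed (adjusted p = 0.0294 and 0.0288). *Gria4* was next, from 0 and 0.183 FPKM in WT day 0 to 0.674 and 0.5005 FPKM in WT day 6. *Gria2*, the subunit that makes AMPA receptors little permeable to calcium, was listed at 0 in all 4 samples of day 0 and did not exceed 0.0830 FPKM at day 6. *Gria1* did not exceed 0.157 FPKM and was listed at 0 in 3 of the 4 samples of day 6.

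Of the GABA receptor genes described, *Gabbr1* was over the minimum, and it did not pass the test in WT cells. *Gabbr1* (chr17:37182911-37211250), the subunit of GABA-B receptors that binds GABA, was at 10.3 and 11.3 FPKM in WT day 0 and at 8.62 and 7.79 FPKM in WT day 6, a difference of -0.35 (95% confidence interval -0.82 to 0.11). The values did not overlap between the days, and when the samples were given the same distribution by quantile normalization the difference was -0.70 (adjusted p = 0.0169). *Gabbr1* had the highest level of the 34 genes in all samples but WT day 6 replicate 2 and *Pcgf5*-/- day 6 replicate 2, in which *Grik5* was higher. Its partner *Gabbr2*, needed to carry the pair to the cell surface, was at 0 and 0.0296 FPKM in WT day 0 and at 0.272 and 0.168 FPKM in WT day 6.

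The 9 GABA-A receptor genes were all under the minimum, and they are described by their place in the genome. On chromosome 7, the alpha subunit gene *Gabra5* reached 0.536 FPKM and the gamma subunit gene *Gabrg3* 0.113 FPKM. In the cluster on chromosome 5, *Gabra4* reached 0.268, *Gabrb1* 0.373, *Gabrg1* 0.235 and *Gabra2* 0.0526 FPKM. On chromosome 11, *Gabrb2* reached 0.261 FPKM, and *Gabra6*, an alpha subunit known from cerebellar granule cells, was listed at 0 in all samples. *Gabra3*, on the X chromosome, reached 0.133 FPKM. *Gabra5* was thus the highest of the 9 genes, and none exceeded 0.536 FPKM in any sample.

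**Figure D3:**
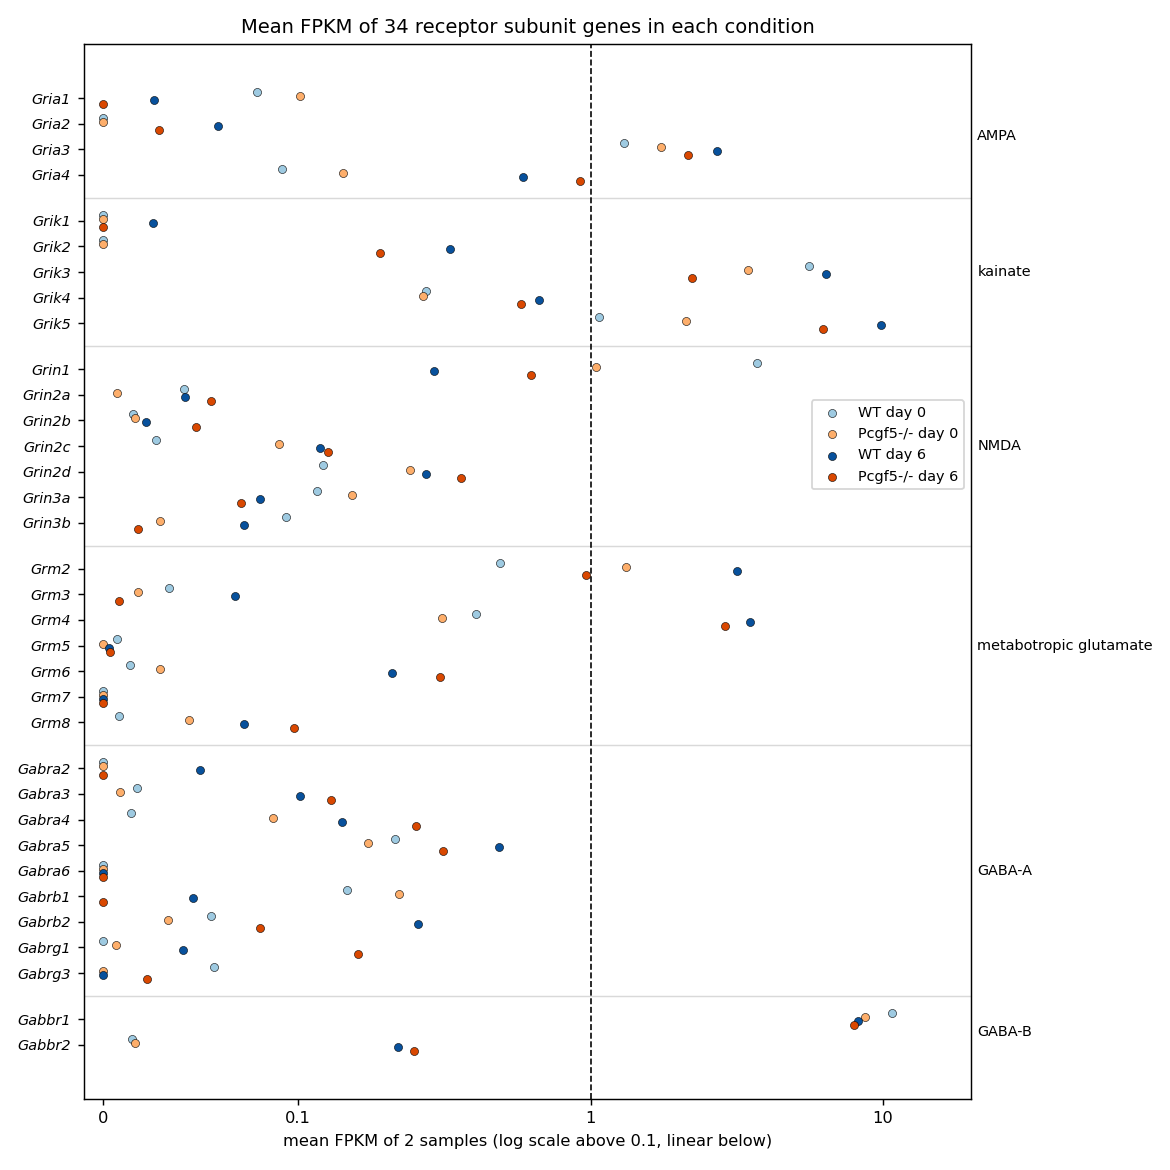
Mean FPKM of the 2 samples of each condition for the 34 receptor genes by class (horizontal axis linear under 0.1 and logarithmic above), with a dashed line at the minimum of 1 FPKM. In all, 7 genes lay to the right of the line in at least one condition, and the 27 other genes lay to its left in all 4 conditions.

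For each FPKM value the authors' files gave a 95% confidence interval from cufflinks, which covers the counting and assignment of fragments and not the spread between cultures. Its lower bound was above 0 in both samples for 12 of the 34 genes in WT day 0, 10 in *Pcgf5*-/- day 0, 18 in WT day 6 and 22 in *Pcgf5*-/- day 6. For 9 genes it was above 0 in all 8 samples, which were *Gria3*, *Grik3*, *Grik4*, *Grik5*, *Grin1*, *Grin2d*, *Grin3a*, *Grm2* and *Gabbr1*. For 6 genes it was above 0 in none, which were *Grik1*, *Grm5*, *Grm7*, *Gabra2*, *Gabra6* and *Gabrg3*, so that none of these 6 could be told from 0 in a single sample by this interval. *Gabra2* was nevertheless listed above 0 in both WT samples of day 6. Of the 32 genes above 0 in any sample, 10 (31.2%) were higher in all 4 samples of day 6 than in all 4 samples of day 0, against 24.3% of the 19792 genes so listed. These were *Gria2*, *Gria4*, *Grik2*, *Grik4*, *Grik5*, *Grm4*, *Grm6*, *Gabra3*, *Gabrg1* and *Gabbr2*. None of the 32 was lower in all 4 samples of day 6, against 10.4% of genes.

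The second question was which of these changes took place without *Pcgf5*. In *Pcgf5*-/- cells, *Grm4* and *Grik5* were called higher at day 6, and 21.9% of all genes tested were called higher (2898, against 1373 lower, and 1961 against 1734 after quantile normalization). No receptor gene was called lower by limma, and none had an unadjusted p under 0.05 in that direction, where 10.4% of all genes tested were called lower. Of the 13214 genes tested, 5851 had an unadjusted p under 0.05 in either direction. *Grm4* was at 0.0943 and 0.525 FPKM in *Pcgf5*-/- day 0 and at 2.80 and 2.94 FPKM in *Pcgf5*-/- day 6, a difference of 1.58 (SE 0.24, adjusted p = 0.00238). *Grik5* was at 1.78 and 2.46 FPKM in *Pcgf5*-/- day 0 and at 4.98 and 7.51 FPKM in *Pcgf5*-/- day 6, a difference of 1.20 (SE 0.27, adjusted p = 0.0128). The *Grik5* groups did not overlap, but the call was lost without *Pcgf5*-/- day 0 replicate 1 (1.04, adjusted p = 0.0786) or without *Pcgf5*-/- day 6 replicate 2 (0.95, adjusted p = 0.0837).

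The 2 genes called in WT cells alone were *Grin1* and *Grm2*. *Grin1* was at 1.46 and 0.636 FPKM in *Pcgf5*-/- day 0 and at 0.890 and 0.360 FPKM in *Pcgf5*-/- day 6. These values overlapped, and the difference was -0.32 (95% confidence interval -0.90 to 0.25). *Grm2* was at 1.81 and 0.836 FPKM in *Pcgf5*-/- day 0 and at 1.10 and 0.838 FPKM in *Pcgf5*-/- day 6, also overlapping, with a difference of -0.21 (95% confidence interval -0.96 to 0.54). *Grik3* had a difference of -0.47 between the days in *Pcgf5*-/- cells (95% confidence interval -1.12 to 0.18), *Gria3* of 0.28 and *Gabbr1* of -0.10, none of which passed the test.

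**Figure D4:**
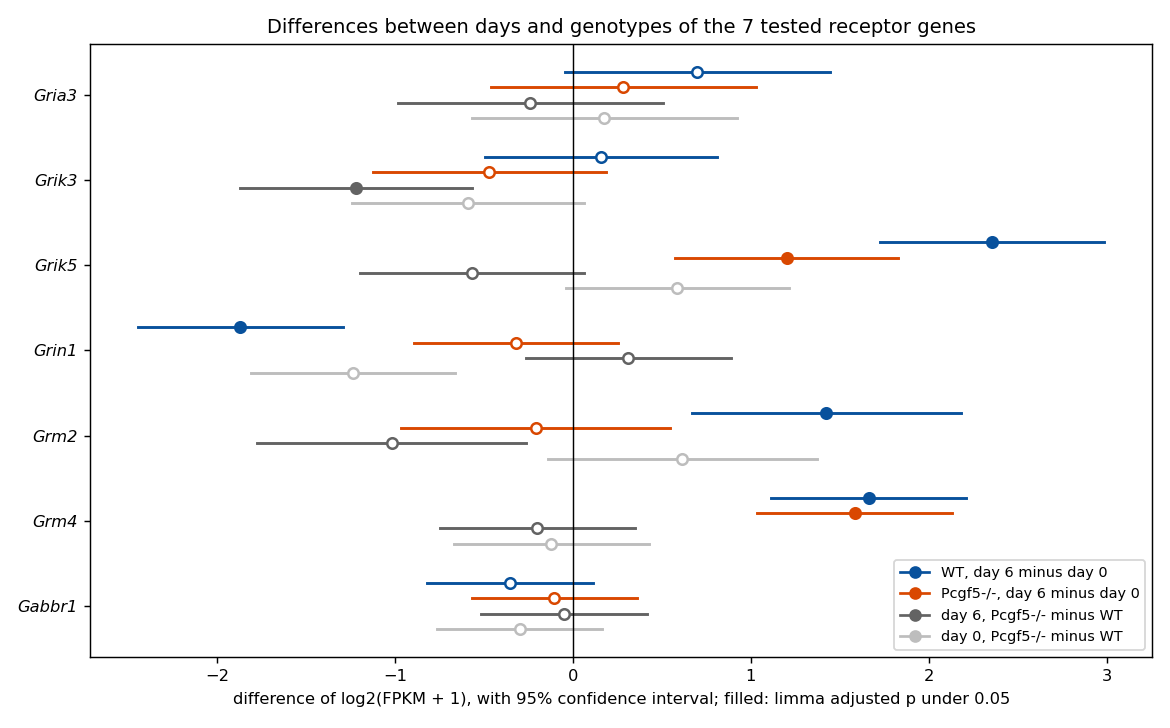
Differences on the log2(FPKM + 1) scale of the 7 tested receptor genes between days in each genotype and between genotypes at each day, as points with 95% confidence intervals from limma, filled where the adjusted p was under 0.05. *Grik5* and *Grm4* had filled points for the day in both genotypes, *Grin1* and *Grm2* in WT cells, and *Grik3* was the gene with a filled point between genotypes, at -1.22 in day 6.

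The third question was how *Pcgf5*-/- cells differed from WT cells at the same day. At day 6 one receptor gene of the 7, *Grik3*, was called lower in *Pcgf5*-/- cells, where 7.05% of all genes tested were called lower. None was called higher by limma, none had an unadjusted p under 0.05 in that direction, and 9.57% of all genes tested were called higher. In counts this was 1265 higher and 932 lower, and 851 higher and 973 lower after each chromosome was centred. An unadjusted p under 0.05 in either direction was found for 4315 of the 13214 genes tested. *Grik3* was at 7.39 and 5.41 FPKM in WT day 6 and at 2.92 and 1.54 FPKM in *Pcgf5*-/- day 6. The groups did not overlap, and the mean was 2.87-fold higher in WT cells, with a difference of -1.22 (SE 0.28, 95% confidence interval -1.87 to -0.57, adjusted p = 0.0253). The call was close to the threshold. The difference kept its sign but no longer passed when any 1 of the 4 samples of day 6 was left out (-0.90 to -1.53, adjusted p = 0.056 to 0.124), when only the day 6 samples were fitted (adjusted p = 0.0526), or when genes of all levels were tested (adjusted p = 0.0665).

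*Grm2* was at 4.45 and 1.91 FPKM in WT day 6 and at 1.10 and 0.838 FPKM in *Pcgf5*-/- day 6. The groups did not overlap, but the difference of -1.02 (SE 0.33, adjusted p = 0.0687) did not pass the test. With the replicate number as a block it did (adjusted p = 0.0248). *Grik5* was at 7.43 and 12.3 against 4.98 and 7.51 FPKM, which overlapped, with a difference of -0.57 (SE 0.27, adjusted p = 0.192). *Grm4* (-0.20, 95% confidence interval -0.75 to 0.35), *Gria3* (-0.24, -0.98 to 0.50) and *Gabbr1* (-0.05, -0.51 to 0.41) also did not pass, and the intervals leave room for moderate changes in either direction. The median difference over the 7 genes was -0.24 and over all genes tested 0.02. For the kainate receptor genes together, the summed level at day 6 was 15.8 and 18.8 FPKM in WT and 8.61 and 9.88 FPKM in *Pcgf5*-/- cells.

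Among the genes under the minimum, *Gabrb2* was at 0.261 and 0.253 FPKM in WT day 6 and at 0.0604 and 0.101 FPKM in *Pcgf5*-/- day 6. *Gabra2* was at 0.0469 and 0.0526 FPKM in WT day 6 and listed at 0 in both *Pcgf5*-/- samples. When genes of all levels were tested, *Gabrb2* was called lower in *Pcgf5*-/- cells (-0.22, SE 0.0329, adjusted p = 0.0235) and *Gabra2* was not (-0.0700, adjusted p = 0.0754). With a pseudocount of 0.1 as well, *Gabra2* was called (-0.58, adjusted p = 0.0387) and *Gabrb2* was not (-0.99, adjusted p = 0.0512). *Gabra2* was listed at 0 in 6 of the 8 samples and its lower cufflinks bound was 0 in all of them, so this call rests on values at the floor. *Grik2* was at 0.305 and 0.354 against 0.121 and 0.259 FPKM. Of the 32 genes above 0 in any sample, 10 (31.2%) were lower in both *Pcgf5*-/- samples of day 6 than in both WT samples, against 24.9% of all genes listed above 0. These 10 were *Gria3*, *Grik2*, *Grik3*, *Grik4*, *Grin3b*, *Grm2*, *Grm3*, *Gabra2*, *Gabra5* and *Gabrb2*. In the other direction 4 (12.5%), *Grin1*, *Gabra3*, *Gabra4* and *Gabrg1*, were higher in both *Pcgf5*-/- samples, against 28.2% of genes. The first share was near that of all genes and the second lay under it, a difference that was not tested.

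At day 0 no receptor gene was called by limma between the genotypes, where 0.333% of all genes tested were called in either direction. These were 44 genes, 38 higher and 6 lower, against 3 genes after quantile normalization and 2 after centring each chromosome, all lower. An unadjusted p under 0.05 was found for 2294 of the 13214 genes tested and for 1 of the 7 receptor genes, *Grin1*. It was at 3.91 and 3.52 FPKM in WT day 0 and at 1.46 and 0.636 FPKM in *Pcgf5*-/- day 0. The groups did not overlap, and the mean was 3.55-fold higher in WT cells, with a difference of -1.23 (SE 0.25, adjusted p = 0.067, or 0.0487 with a replicate block for each day). *Grik3*, at 5.95 and 5.21 against 4.31 and 2.59 FPKM, had a difference of -0.59 (adjusted p = 0.333). *Grik5*, at 1.10 and 1.03 against 1.78 and 2.46 FPKM, had a difference of 0.59 (adjusted p = 0.317), and *Grm2*, at 0.660 and 0.324 against 1.81 and 0.836 FPKM, of 0.62 (adjusted p = 0.380). The 3 other genes had differences between -0.30 and 0.18.

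Whether the effect of genotype differed between the days was tested in the same fit. No receptor gene was called by limma, and 3.09% of all genes tested were called in either direction (177 higher and 231 lower, and 307 higher and 225 lower after quantile normalization). With an unadjusted p under 0.05 there were 3 genes, *Grin1* (1.55, SE 0.35, adjusted p = 0.0557), *Grm2* (-1.63, SE 0.46, adjusted p = 0.0905) and *Grik5* (-1.16, SE 0.39, adjusted p = 0.128). Of the 13214 genes tested, 3064 had such a p in either direction. In this fit the calls of *Grin1* and *Grm2* in WT cells alone are not shown to differ from *Pcgf5*-/- cells. When replicate number was added as a block, the difference passed for both (adjusted p = 0.0418 and 0.0465), and with a block for each day also for *Grik5* (adjusted p = 0.0412). Whether the numbers pair WT with *Pcgf5*-/- samples is not given in the labels. The median difference between *Pcgf5*-/- and WT was 0.41 over the genes tested on chromosome 6 and 0.48 over those on chromosome 11 at day 0, and 0.37 and 0.38 at day 6, while the medians of the 18 others, the X chromosome included, lay between -0.06 and 0.12. The Y chromosome, with 5 genes tested, is not among these and had medians of -0.41 and 0.27. None of the 7 tested receptor genes lay on these 2 chromosomes. *Grin2b*, *Grm7* and *Grm8* lay on chromosome 6, and *Gria1*, *Grin2c*, *Grm6*, *Gabra6* and *Gabrb2* on chromosome 11.

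Among the genes for proteins that accompany these receptors, more were over the minimum. Of 41 genes for auxiliary subunits and postsynaptic scaffolds, 25 were tested. In WT cells 19 of these were called higher at day 6 and 2 lower, with a median difference of 1.13, and in *Pcgf5*-/- cells 11 were called higher and 1 lower, with a median of 0.59. Among all genes tested, 34.2% were called higher and 16.2% lower in WT cells (median 0.22), and 21.9% and 10.4% in *Pcgf5*-/- cells (median 0.13). The largest WT differences were those of *Grip1*, a scaffold that binds AMPA receptors, *Cacng4*, a transmembrane regulator of AMPA receptors, and *Neto2*, an auxiliary subunit of kainate receptors. *Grip1* went from 0.387 and 0.263 FPKM in WT day 0 to 14.0 and 16.7 FPKM in WT day 6, a difference of 3.62 (adjusted p = 1.07e-05). *Cacng4* went from 0.249 and 0 FPKM to 6.42 and 5.90 FPKM, a difference of 2.68 (adjusted p = 3.37e-05), and *Neto2* from 0.514 and 0.538 FPKM to 8.60 and 7.12 FPKM, a difference of 2.53 (adjusted p = 5.15e-05). The levels of *Grip1* and *Cacng4* in WT day 6 thus exceeded those of *Gria3*, the main AMPA receptor gene.

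In the comparison of genotypes at day 6, 7 of the 25 genes were called lower in *Pcgf5*-/- cells and none higher by limma, with a median difference of -0.35. Among all genes tested, 7.05% were called lower and 9.57% higher, with a median of 0.02. With an unadjusted p under 0.05, 11 were lower and 1 higher, where 4315 of 13214 genes tested had such a p in either direction. The largest of these differences was that of *Cacng4*, at 1.87 and 1.67 FPKM in *Pcgf5*-/- day 6 (-1.37, SE 0.20, adjusted p = 0.00734). *Gphn*, the scaffold of GABA-A and glycine receptors, had a difference of -1.03 (adjusted p = 0.0235), and *Shisa9*, an AMPA receptor regulator, of -0.95 (adjusted p = 0.0267). *Shisa9* had a mean over 1 FPKM only in WT day 6 (1.26 FPKM, against 0.136 FPKM in *Pcgf5*-/- day 6). Genes of this list could thus enter the test through the condition in which they were high, and its counts and medians are not given as support. *Cacng4* was also the 1 gene of the 25 for which the effect of genotype differed between the days (-1.82, SE 0.28, adjusted p = 0.0288). Neural progenitor and neuron markers moved with this list, since 10 of 10 progenitor markers and 5 of the 11 neuron markers tested were called lower in *Pcgf5*-/- cells at day 6.

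Of 14 further receptor genes, of the delta glutamate, the remaining GABA-A and the glycine receptor families, 2 were over the minimum, and both encode glycine receptor subunits. *Glra1* was at 0.0302 and 0.0511 FPKM in WT day 0 and at 8.37 and 10.4 FPKM in WT day 6, a difference of 3.31 (SE 0.20, adjusted p = 1.3e-05). In *Pcgf5*-/- cells it went from 0 in both samples to 5.88 and 7.58 FPKM, a difference of 2.94 (adjusted p = 0.000104). *Glrb*, the beta subunit that pairs with it, was called higher at day 6 in WT cells (1.00, adjusted p = 0.00351). At day 6 *Glra1* thus stood at a level like that of *Grik5* and *Gabbr1*, and over every other of the 34 receptor genes in WT cells. Neither was called between genotypes at day 6 or at day 0 by limma, or had an unadjusted p under 0.05 there. Both had a mean over 1 FPKM only at day 6 and so entered the test through the conditions in which they were high.

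Genes for making, moving and breaking down glutamate and GABA changed in both directions. Of 22 genes, 13 were tested, and 8 were called higher and 3 lower at day 6 in WT cells, against 5 higher and 2 lower in *Pcgf5*-/- cells. At day 6, 3 were called higher and 1 lower in *Pcgf5*-/- than in WT cells. The shares of all genes tested were 34.2% higher and 16.2% lower between the days in WT cells, 21.9% and 10.4% in *Pcgf5*-/- cells, and 9.57% and 7.05% between genotypes at day 6. The largest of these differences was that of *Gls2*, a glutaminase that makes glutamate, at 2.94 and 2.70 FPKM in WT day 6 and at 6.48 and 7.73 FPKM in *Pcgf5*-/- day 6 (1.08, SE 0.17, adjusted p = 0.00853). *Gad2*, which makes GABA (0.85, adjusted p = 0.0316), was also higher, and *Aldh5a1*, an enzyme of GABA breakdown (-0.80, adjusted p = 0.0288), was lower. *Gad2* had a mean over 1 FPKM only in *Pcgf5*-/- day 6 (2.47 FPKM, against 0.961 FPKM in WT day 6). It thus entered the test through the condition in which it was called higher, and the counts of this list are not given as support. Of the 2 chloride transporter genes that set the direction of the GABA-A current, *Slc12a5* was called higher at day 6 in both genotypes (0.98 in WT and 0.85 in *Pcgf5*-/- cells, adjusted p = 0.00176 and 0.00684). It was at 1.01 and 1.32 FPKM in WT day 6 and 1.10 and 0.994 FPKM in *Pcgf5*-/- day 6, and *Slc12a2* was not called in either genotype. *Slc12a5* had a mean over 1 FPKM only at day 6 and so entered the test through the conditions in which it was high. Of 10 markers of astrocytes and oligodendrocytes, 5 were tested, of which 3 were called higher and 1 lower at day 6 in WT cells, and their sum was 7.51 to 12.5 FPKM at day 0 and 13.9 to 16.1 FPKM at day 6.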

How the data were processed

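RNA was sequenced from WT and *Pcgf5*-/- mESCs at day 0 and day 6, with 2 samples per condition, which the series describes as biological replicates. Per the methods, the authors trimmed adapters and bases of Phred quality under 5, removed reads shorter than 19 bases, identical duplicates and reads with over 5% undetermined bases, and aligned the read pairs to mm9. The submitters' processing notes name TopHat2 2.0.4 and Cufflinks 2.1.1. The gene annotation is not given in the sources used here. The deposited values are FPKM per gene, scaled by the authors for library size and gene length, with confidence bounds. Removing identical reads can lower the most abundant transcripts. The files hold no counts. Depth was compared by FPKM ratios of genes whose upper confidence bound was about 3 times the value. The median ratios to WT day 0 replicate 1 placed the libraries within 1.3-fold of each other, from only 3 to 9 genes per comparison.

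Log2(FPKM + 1) was computed, and 13214 genes with a mean over 1 FPKM in at least one condition were fitted with limma 3.58.1 (R 4.3.3), all 8 samples together, with a trend and no replicate block. P-values are two-sided and Benjamini-Hochberg adjusted over these genes at 0.05. The fit was tested on simulated data. Genes were matched to GENCODE vM1 on NCBIM37 (mm9) for strand and sequence, and all described receptor genes matched. Of the 38 genes that the naming rule finds, 34 are described and named, and 4 are not reported here, so sums, medians and counts are over the 34. From each of the other lists, at most the 3 tested genes with the largest called difference in a comparison are named. *Stmn2* is named besides, for its part in the sum of neuron markers. *Grin1* is set beside *E130003G02Rik*, and *Grm6* beside *Gm12660*, only for their shared exons. The receptor genes and all lists were chosen with earlier results of these data known. Alternatives were other pseudocounts, filters, scalings, blocks, fits and left-out samples. Housekeeping genes (20 looked at) had no 0.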

Additional observations from a re-analysis of the deposited data

Results flagged for a closer look

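Both of the following results drew attention because the *Pcgf5*-/- samples lay on opposite sides of the WT samples at the 2 days. They were picked by this pattern in the same values, and the share of all genes with it is not given here. *Grin1* was under both WT values in both *Pcgf5*-/- samples at day 0 (1.46 and 0.636 against 3.91 and 3.52 FPKM) and over both at day 6 (0.890 and 0.360 against 0.346 and 0.238 FPKM). The nearest values at day 6 were almost equal, and the difference of 0.31 between genotypes there did not pass the test (limma adjusted p = 0.425). Reads of *Grin1* also cannot be told apart from those of the transcript on its opposite strand. The genotype effect at day 6 minus that at day 0 was 1.55 on the log2(FPKM + 1) scale (95% confidence interval 0.74 to 2.36, limma adjusted p = 0.0557). *Grm2* was over both WT values at day 0 (1.81 and 0.836 against 0.660 and 0.324 FPKM) and under both at day 6 (1.10 and 0.838 against 4.45 and 1.91 FPKM), and the same quantity was -1.63 (95% confidence interval -2.70 to -0.57, limma adjusted p = 0.0905). Neither passed the limma threshold without a replicate block, and both did with one (adjusted p = 0.0418 and 0.0465). These tests used the values by which the genes were picked and are not given as support. The block also takes the replicate numbers as shared between conditions, which the labels do not give.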

How the results depend on the processing

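With 2 samples per condition and no counts, the limits are the spread of cultures and the low levels: 27 of 34 genes were under the minimum, and no weak change of these can be judged. Under the alternatives, 598 values of single genes kept their direction and side of the threshold, 14 newly passed, 10 no longer passed and 23 turned direction, the last all of values that were not called. Why single values moved was not tested, except that fewer or more genes were tested under another minimum.

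With no minimum (32 tested), 9 receptor genes were called between the days in WT and 6 in *Pcgf5*-/- cells, and between genotypes at day 6 *Gabrb2* in place of *Grik3*. With a mean over 5 FPKM (3 tested) there were 1 and 1. No minimum with a pseudocount of 0.1, chosen after the data were seen, gave 11 and 6, with *Gabra2* called between genotypes at day 6 and *Grik3* at -1.53 (adjusted p = 0.0707). With only the groups compared in the fit, 0 genes were called at day 6, and *Gria3* passed between the days in WT cells (adjusted p = 0.041). Leaving out 1 sample gave 3 to 5 genes for the days in WT cells, 1 to 2 in *Pcgf5*-/- cells and 0 to 1 between genotypes at day 6; without WT day 6 replicate 2 the gene at day 6 was *Grm2* (-1.47, adjusted p = 0.0484) and *Grik3* was lost (adjusted p = 0.0725). Where a condition was left with 1 sample, that sample was assumed to vary like the others. Shares of all genes called are not given here for the settings of this paragraph, so its counts cannot be set against a background.

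Whether the same replicate numbers pair the samples is not settled: the labels do not say, the study's methods speak of fold changes between paired samples of the genotypes, and 2 samples per condition are too few to tell. The differences of replicate 1 and 2 correlated over genes at 0.39 between WT and *Pcgf5*-/- day 6, 0.10 at day 0 and -0.08 to -0.02 between days. With a replicate block, 2 genes were called between genotypes at day 6 (*Grik3* and *Grm2*) and 2 for the change of the genotype effect (*Grin1* 1.55, adjusted p = 0.0418, and *Grm2* -1.63, adjusted p = 0.0465). With a replicate block for each day, these were 2 and 3 genes, the latter with *Grik5* (adjusted p = 0.0412), and 1 gene, *Grin1* (adjusted p = 0.0487), was called at day 0. Shares of all genes called with either block are not given here, so these counts cannot be set against a background.

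Scaling moved the balance of days. Quantile normalization took the median difference between the days in WT cells from 0.22 to 0.0050 over all genes. Quantile normalization and centring each chromosome turned *Grik3* (-0.27 and -0.0304) between the days in WT cells, and brought *Gabbr1* past the threshold (-0.70 and -0.57). Quantile normalization turned *Gria3* in *Pcgf5*-/- cells (-0.0103). A replicate block for each day turned *Gabbr1* in *Pcgf5*-/- cells (0.15). For *Grm4*, the change of the genotype effect was 0.28 and 0.55 with pseudocounts of 0.1 and 0.01, 0.28 with no minimum as well, 0.0936 with quantile normalization and 0.0192 with centring.

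Leaving out 1 sample turned other uncalled differences. Between the days, the ranges were -0.33 to 0.13 for *Gabbr1*, -0.23 to 0.80 for *Gria3* and -0.52 to 0.10 for *Grm2* in *Pcgf5*-/- cells, and -0.0344 to 0.353 for *Grik3* in WT cells. Between genotypes at day 6 they were -0.20 to 0.10 for *Gabbr1* and -0.454 to 0.0522 for *Grm4*, and at day 0 -0.34 to 0.69 for *Gria3* and -0.36 to 0.12 for *Grm4*. For the change of the genotype effect they were -0.93 to 0.10 for *Gria3* and -0.33 to 0.17 for *Grm4*.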
